A study of Homo sapiens with 3 samples.

Results

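The regions described here are ChIP-seq peaks on the far parts of the long arms of chromosomes 8, 10 and 17 in HCT116 cells, away from the ends of protein-coding genes. They are all peaks of the VCP and Flag lists on chromosome 8 from 66 Mb, on chromosome 10 from 95 Mb and on chromosome 17 from 40 Mb to the chromosome end whose summit lies over 1 kb from both ends of every protein-coding gene. The rule keeps 595 of the 7535 listed peaks, which are 177 of 1816 in the VCP list and 418 of 5719 in the Flag list. On 8q there were 89 VCP and 161 Flag peaks, on 10q 44 and 75, and on 17q 44 and 182. The segments were named for the known karyotype of the line, and their copy number was not measured here.

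HCT116 is a human colorectal cancer cell line, and in this series it overexpressed Flag-tagged VCP. Chromatin was fixed for 10 minutes in 1% formaldehyde and cut with micrococcal nuclease, and the series holds 3 libraries: one precipitated with an antibody to VCP, one with an antibody to Flag, and the input. Each was 1 library of the same kind of cells, without a replicate. Every interval below is a 95% interval that covers counting error only, or for medians the spread of peaks within a list. Coordinates are 1-based on hg38, and the gene table used gives the outer ends of each gene but neither exons nor strand.

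VCP, also called p97, is an AAA ATPase that unfolds ubiquitin-tagged proteins and pulls them out of membranes, complexes and chromatin for degradation or recycling. HCT116 is a near-diploid line whose published karyotype carries extra copies of distal 8q, distal 10q and distal 17q, and the 8q and 17q material sits on derivatives of other chromosomes. A ChIP-seq peak caller compares the reads at a place with a local background, and a stretch of DNA present in more copies gives more reads to both.

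The following sequences belong to sites described further on and were chosen after the values had been seen. Each is from RefSeq on GRCh38.p14 and runs 5′ to 3′ on the strand of its gene. The mature microRNA is shown because its hairpin (chr17:59841266-59841337, plus strand) lies in the Flag cluster with the most peaks, and the capitals mark its seed, bases 2 to 8. The promoters are those of the 2 RefSeq starts with the highest -log10 q among members whose summit fell inside the window from 250 bases before to 50 after a start. They are LINC00673 (chr17:72592755-72593054, minus strand) and LOC124904048 (chr17:68101447-68101746, minus strand), and the capitals mark the 21 bases around the Flag summit.
hsa-miR-21-5p: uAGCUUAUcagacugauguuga
LINC00673: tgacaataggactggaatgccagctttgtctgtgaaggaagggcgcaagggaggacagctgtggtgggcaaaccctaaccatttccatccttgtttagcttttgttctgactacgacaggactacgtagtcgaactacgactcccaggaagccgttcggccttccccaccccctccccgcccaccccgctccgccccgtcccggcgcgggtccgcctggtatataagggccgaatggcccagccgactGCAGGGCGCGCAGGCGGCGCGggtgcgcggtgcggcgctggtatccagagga
LOC124904048: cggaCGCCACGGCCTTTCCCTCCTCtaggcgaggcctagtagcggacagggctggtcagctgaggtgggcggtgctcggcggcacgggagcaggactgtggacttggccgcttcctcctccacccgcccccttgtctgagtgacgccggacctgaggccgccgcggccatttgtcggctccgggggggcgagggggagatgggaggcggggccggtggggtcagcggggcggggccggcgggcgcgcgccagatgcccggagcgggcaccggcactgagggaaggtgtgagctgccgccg

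Each peak carries the authors' fold enrichment, which sets its summit reads over the background nearby, and their -log10 q. From the fold enrichment together with the p-value, summit reads and background were worked back, and a whole number of reads matched the -log10 p within 0.001 for all 1816 VCP and all 5719 Flag peaks. Backgrounds started at 1.74 reads for VCP and 1.85 reads for Flag. This is the depth the lists themselves show, since total reads per library are not among their columns. Fold enrichment and q are read within a list only.

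On all 3 segments and in both lists, peaks away from gene ends lay closer together than on the rest of the same chromosome. On 17q the VCP list had 1.018 peaks per Mb, against 0.337 on the rest of chromosome 17 (12 peaks), a ratio of 3.02 (1.57 to 6.29). With fold enrichments of at least 3.5 this VCP ratio was 1.38, and with q of 0.05 or below it was 0.825, from 3 peaks on either side. The Flag list had 4.21 peaks per Mb on 17q and 1.43 on the rest, a ratio of 2.94 (2.15 to 4.10). All 6 intervals lie above 1.

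On 10q the VCP list had 1.14 peaks per Mb and the rest of chromosome 10 had 0.557, a ratio of 2.04 (1.33 to 3.11). The Flag list had 1.93 peaks per Mb on 10q and 1.21 on the rest, a ratio of 1.60 (1.17 to 2.16). On 8q the VCP list had 1.13 peaks per Mb and the rest of chromosome 8 had 0.699, a ratio of 1.61 (1.11 to 2.37). The Flag list had 2.04 peaks per Mb on 8q and 1.096 on the rest, a ratio of 1.86 (1.39 to 2.50). Within a list the 3 intervals overlap one another. Protein-coding genes came at 7.2 per Mb on 10q and 4.96 on the rest of chromosome 10. They came at 4.59 against 5.47 on chromosome 8 and 14.6 against 14.7 on chromosome 17. The part of gene density in these ratios was not tested. With fold enrichments of at least 3.5 the VCP ratio was 1.35 (0.585 to 3.31) on 8q and 1.35 (0.490 to 3.45) on 10q. The Flag ratio was then 1.93 (1.14 to 3.38) on 8q and 1.535 (0.899 to 2.58) on 10q. Of these intervals only that of Flag on 8q lies above 1. For VCP the order of the segments was not stable, since against the 19 other autosomes the ratio was 2.16 on 17q, 2.41 on 10q and 2.39 on 8q.

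Over the 19 autosomes other than 8, 10 and 17 the same kind of peak came at 0.471 per Mb in the VCP list, with chromosomes between 0.354 and 0.789. In the Flag list it came at 1.26 per Mb, with chromosomes between 0.863 on chromosome 13 and 2.98 on chromosome 19. All 3 segments exceeded the densest of these chromosomes in the VCP list, and 17q did so in the Flag list. The rest of chromosome 8 also stood high in the VCP list, at 0.699 per Mb. Against the rest of the long arm alone, the VCP ratio of 8q was 1.29 (0.761 to 2.31), which includes 1, and the Flag ratio was 2.83 (1.64 to 5.29).

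The ratio depends on the local background of the peaks counted. Among peaks above the lowest background of their list, the segment over the rest was 1.69 on 8q, 2.56 on 10q and 5.91 on 17q for VCP, and 2.50, 2.40 and 4.83 for Flag. Among peaks at the lowest background it was below 1 in all 6 cases. For Flag it was 0.279 (0.0995 to 0.686) on 8q, 0.281 (0.0868 to 0.709) on 10q and 0.645 (0.328 to 1.25) on 17q. For VCP it was 0.796 (0.148 to 4.27), 0.787 (0.224 to 2.28) and 0.138 (0.00299 to 1.13), from 4, 5 and 1 peaks on the segments. The VCP intervals and that of Flag on 17q include 1. The background a peak receives is itself read from the reads around it, so these counts split one measurement by another of the same libraries. A smaller share of segment peaks than of the rest had the lowest background. A ratio there below that of all peaks, and a higher one above it, therefore follow by construction.

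**Figure D1:**
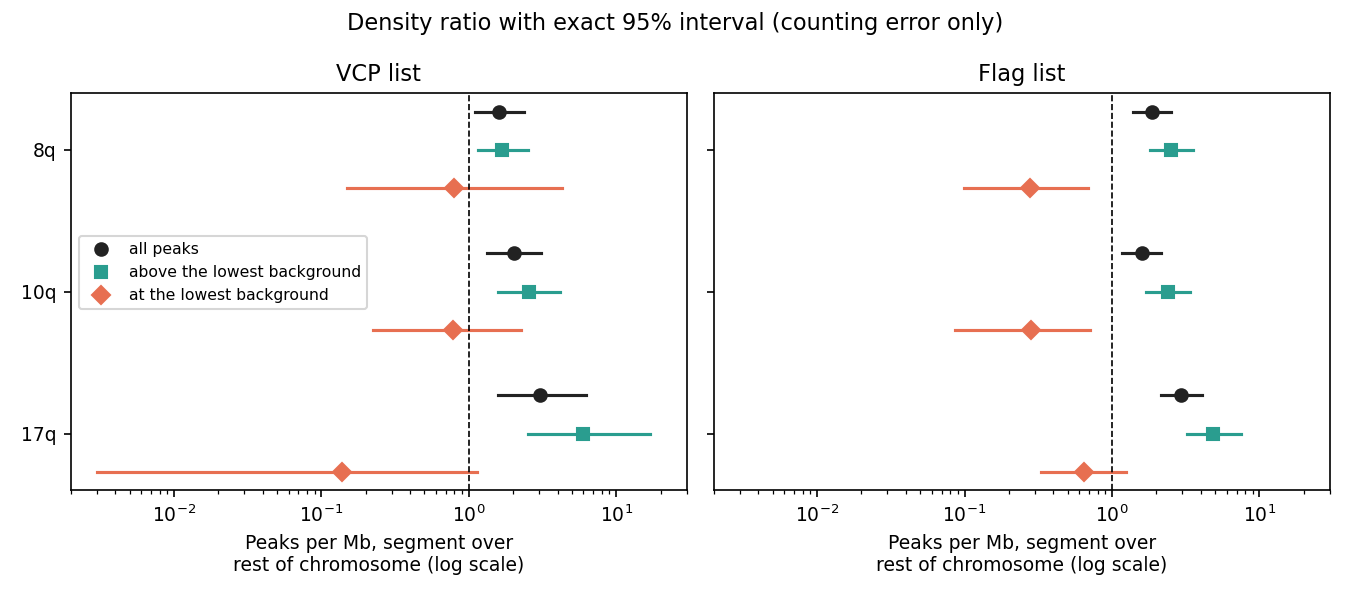
Ratio of peaks per Mb on each segment over the rest of its chromosome (x axis, log scale), in the VCP list on the left and the Flag list on the right, for all peaks over 1 kb from protein-coding gene ends, for those above and for those at the lowest background of their list. Points are ratios and bars exact 95% intervals covering counting error only. All peaks give ratios of 1.60 to 3.02, and peaks at the lowest background give ratios below 1.

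The median recovered background was higher on the segments. Ratio intervals here divide the interval of the segment median by a fixed median of the rest. On 8q the VCP median was 3.43 reads, against 2.56 on the rest of the chromosome. The ratio was 1.34, and its interval (0.9497 to 1.54) includes 1. For Flag the median was 2.95 against 2.43, a ratio of 1.22 (1.12 to 1.39). The Flag medians had overlapping intervals of their own, 2.72 to 3.36 reads on 8q and 2.20 to 2.86 on the rest. On 10q the median was 3.42 against 2.24 reads in the VCP list, a ratio of 1.53 (1.33 to 1.76). In the Flag list it was 2.72 against 2.27, a ratio of 1.2 (1.13 to 1.4). The intervals of the 10q medians did not overlap those of the rest in either list.

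On 17q the median VCP background was 2.49 reads, against 1.76 on the rest of chromosome 17. The ratio was 1.41 (1.23 to 1.80). The 2 VCP medians had overlapping intervals of their own, with 12 peaks on the rest. For Flag the median was 2.79 against 1.97, a ratio of 1.42 (1.38 to 1.58), and the intervals of the medians did not overlap. With the mean in place of the median both 17q ratios fell below 1, to 0.521 and 0.892. Single peaks on the rest of chromosome 17, with backgrounds of 47.9 VCP and 54.9 Flag reads, raised the means there. Against the 19 other autosomes the ratio of medians on 17q was 1.021 for VCP and 1.23 for Flag. The VCP median of those autosomes was 2.435 reads. Of the Flag peaks, 4.35% on 8q, 6.67% on 10q and 9.89% on 17q had the lowest background of the list, against 29.0%, 37.8% and 45.1% on the rest of the chromosomes. The part of this background, and of copy number, in the density was not tested.

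**Figure D2:**
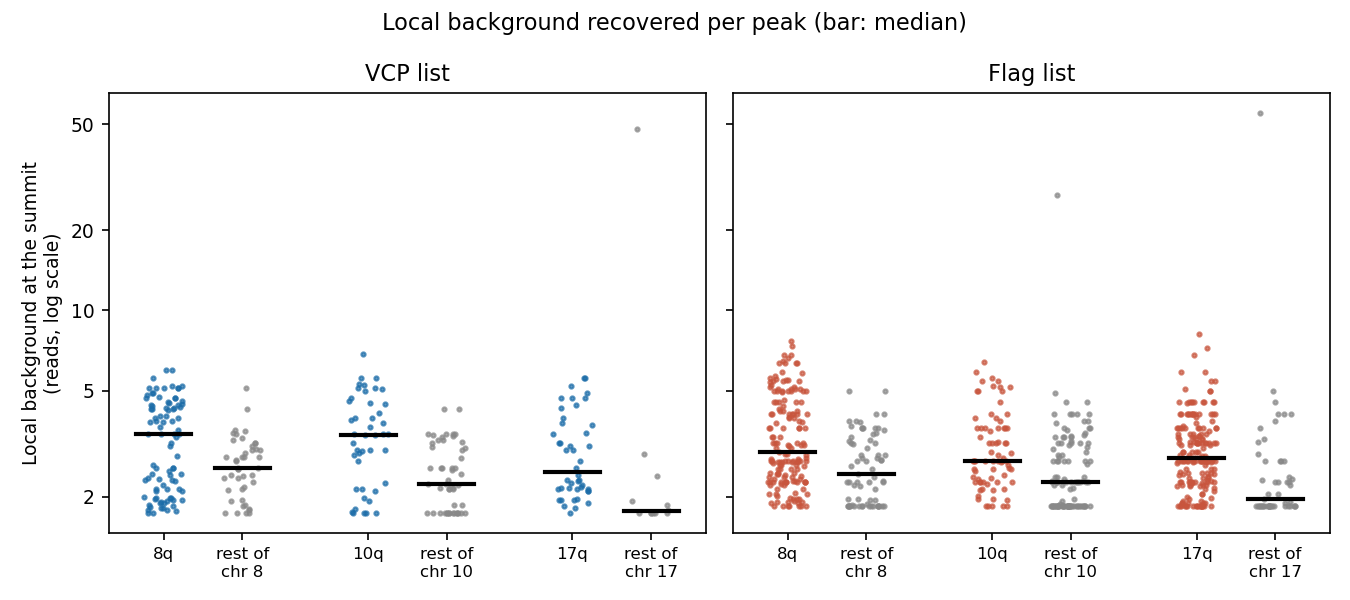
Local background recovered for each peak (y axis, reads, log scale) on each segment, coloured, and on the rest of its chromosome, grey, in the VCP list on the left and the Flag list on the right, with a bar at the median. The segment medians, between 2.49 and 3.43 reads, lie above those of the rest, between 1.76 and 2.56, and peaks of the rest crowd at the lowest value.

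Density changed along each chromosome, but not always at the border in the rule. A single step fitted to the 1 Mb windows of chromosome 17 fell at 39 Mb in the Flag list (likelihood interval 38 to 40), beside the border at 40 Mb, with 4.18 peaks per Mb to its right and 1.39 to its left. In the VCP list it fell at 52 Mb (46 to 52), with 1.25 and 0.357 per Mb. The VCP list had 4 peaks in the 10 Mb between 40 and 50 Mb, where the Flag list had 42 and where 264 protein-coding genes lie.

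On chromosome 10 the step fell at 103 Mb in the VCP list (98 to 107), beyond the border at 95 Mb. For Flag it fell at 99 Mb, with a wide interval (93 to 128) that holds the border. On chromosome 8 the step fell at 62 Mb in the VCP list (44 to 71), an interval that holds the border at 66 Mb. In the Flag list it fell at 93 Mb (91 to 100), with 2.67 peaks per Mb to its right and 1.01 to its left. Between 66 and 86 Mb the Flag list had 0.9 peaks per Mb in each 10 Mb stretch, below the 1.096 of the rest of the chromosome, and the VCP list had 1.1 and 1.4. Density also fell within 10q. The Flag list had 2.8 peaks per Mb in both stretches from 95 to 115 Mb and 1.3 from 115 to 125 Mb. From 125 Mb it had 0.68, below the 1.21 of the rest of chromosome 10. The VCP list had 0.6, 2.2, 0.9 and 0.797 per Mb in these 10q stretches, above the 0.557 of the rest.

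**Figure D3:**
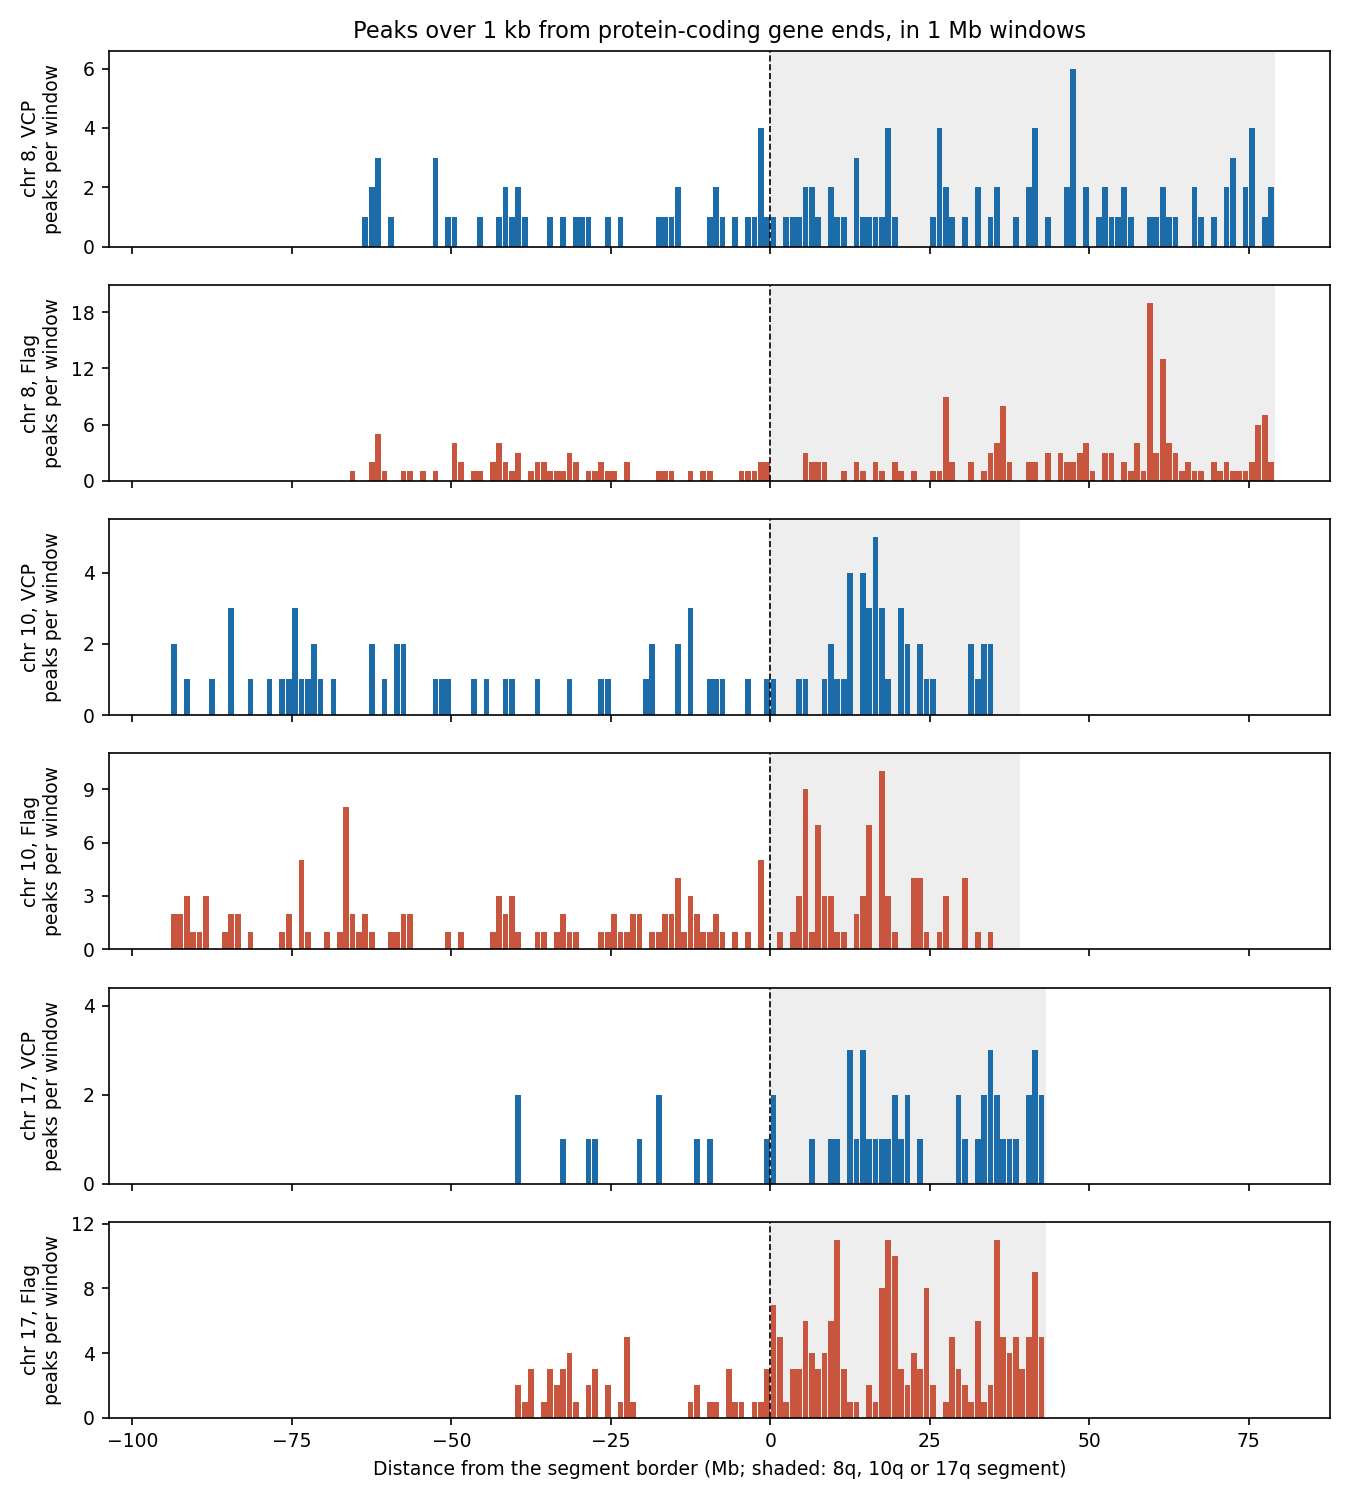
Number of peaks over 1 kb from protein-coding gene ends in each 1 Mb window (y axis) by distance from the segment border in Mb (x axis), for chromosomes 8, 10 and 17 from top to bottom, VCP in blue and Flag in red, with the segments shaded. The highest Flag windows hold 19 peaks on 8q, 10 on 10q and 11 on 17q, and the highest VCP windows 6, 5 and 3.

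Windows with many peaks were set at 3 or more VCP peaks, reached by 2.98% of the 2346 windows of the 19 other autosomes, and at 5 or more Flag peaks, reached by 4.22%. In the VCP list 7 of 79 windows on 8q (8.86%), 6 of 39 on 10q (15.4%) and 4 of 43 on 17q (9.30%) reached the threshold, against 3 of 63, 3 of 92 and 0 of 36 on the rest of the chromosomes. In the Flag list 6 of 79 on 8q (7.60%), 4 of 39 on 10q (10.3%) and 17 of 43 on 17q (39.5%, 24.98 to 55.6) did so, against 1 of 63, 3 of 92 and 1 of 36. On 17q the Flag peaks were thus spread over many windows, and 2 of the 43 windows were empty. Without the 2 fullest windows of the segment, the Flag ratio on 10q was 1.26 (0.894 to 1.75), an interval that includes 1. The Flag ratio was then 1.53 (1.13 to 2.08) on 8q and 2.71 (1.97 to 3.795) on 17q. The VCP ratio on 10q was 1.71 (1.08 to 2.68). Windows were taken from the segment only, so these ratios fall by construction.

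The fullest VCP windows were poor in genes on 8q and 10q, but not all were on 17q. On 8q the window from 113 to 114 Mb held 6 VCP peaks and the lower end of 0 protein-coding genes, with 2 summits inside CSMD3, which encodes a large membrane protein with CUB and sushi domains, and 4 beyond it. These 6 peaks had 14 to 17 reads over backgrounds of 3.80 to 5.99 reads, fold enrichments of 2.29 to 3.13, and -log10 q of 0.697 at most. On 10q the window from 111 to 112 Mb held 5 VCP peaks with fold enrichments of 2.44 to 3.28. They lay 177226 to 533265 bp from the nearest protein-coding gene end, and the summit at 111437433 lay in the non-coding gene LOC105378485. The stretch from 105 to 115 Mb on 10q held 22 of the 44 VCP peaks of the segment, with 33 of its 279 protein-coding genes. On 17q the 1 Mb windows from 52, 54, 74 and 81 Mb held 3 VCP peaks each. They held the lower ends of 0, 3, 26 and 36 protein-coding genes.

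The fullest Flag windows lay around named genes. On 8q the window from 125 to 126 Mb held 19 Flag peaks and 1 VCP peak around TRIB1, which encodes a pseudokinase that guides the COP1 ubiquitin ligase. The window from 127 to 128 Mb held 13 Flag peaks and 2 VCP peaks, and 8 and 3 of the Flag peaks formed the runs at CCAT1 and MYC described below. On 10q the window from 112 to 113 Mb held 10 Flag and 3 VCP peaks at VTI1A and TCF7L2. On 17q the windows from 50, 58 and 75 Mb held 11 Flag peaks each, and the last 2 hold TEX14 and SAP30BP.

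Local clusters were defined as 3 or more summits of 1 list with neighbours at most 50 kb apart. The Flag list formed 25 clusters with 106 of its 418 peaks, and the VCP list 3 clusters with 9 of its 177. On 8q 30.4% of Flag peaks were clustered (23.4 to 38.2), against 0 of 69 on the rest of chromosome 8, where the exact upper bound is 5.21%. On 17q it was 24.2% (18.2 to 31.1) against 13.7% (5.70 to 26.3), and on 10q 17.3% (9.57 to 27.8) against 14.4% (8.47 to 22.4), with overlapping intervals on both. On the 19 other autosomes 12.7% of Flag peaks and 1.54% of VCP peaks were clustered. These shares were not adjusted for the density of peaks. A VCP peak lay within 50 kb of 9 of the 25 Flag clusters.

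The cluster with the most peaks held 9 Flag summits along VMP1, an endoplasmic reticulum protein of autophagy, and MIR21, the microRNA gene whose hairpin lies inside the outer ends of VMP1, between 59754839 and 59844493 on chromosome 17. Fold enrichments ran between 2.76 and 3.67 with 10 to 15 reads, and 1 of the 9 had q at or below 0.05. The summits nearest to the miR-21 hairpin, whose mature arm is shown above, lay 2298 bp below its start and 2519 and 3227 bp above it. The last of these had 15 reads over a background of 3.36, a fold enrichment of 3.67 and -log10 q of 1.90. The 2 VCP peaks, 12303 bp below and 5227 bp above the hairpin start, had 10 and 15 reads and -log10 q of 0.389 and 0.368.

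On 8q a run of 8 Flag summits crossed CCAT1, CASC21 and CASC8, non-coding RNA genes upstream of MYC, between 127215714 and 127295150. The summit inside CCAT1 at 127215714 had 13 reads over 2.46, a fold enrichment of 4.04 and -log10 q of 2.07, and it was the one of the 8 at q of 0.05 or below. MYC, a transcription factor gene and a long-known oncogene, spans 127735434 to 127742951 and held 1 VCP and 2 Flag summits. The VCP summit at 127737801 had 13 reads, a fold enrichment of 3.34 and -log10 q of 0.592. The Flag summits at 127738118 and 127741811 had 16 reads each, fold enrichments of 3.35 and 3.44, and -log10 q of 1.66 and 1.80. The VCP peak and the first of these Flag peaks overlapped.

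The run around TRIB1 held 6 Flag summits between 125384563 and 125467209, of which 3 had q of 0.05 or below, and no VCP peak within 50 kb. Its strongest, at 125386144, had 15 reads over 3.12, a fold enrichment of 3.89 and -log10 q of 2.25. A run of 7 Flag summits between 93821152 and 93936049 stretched from TMEM67, a gene for a ciliary membrane protein, to the far side of PDP1, the gene for a phosphatase of pyruvate dehydrogenase. It held the 8q Flag peak with the highest -log10 q, at 93846764 with 27 reads (17.8 to 39.3) over 3.86, a fold enrichment of 5.77 and -log10 q of 8.91. The run also held 1 VCP peak, at 93858832, with 11 reads and -log10 q of 0.389.

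**Figure D4:**
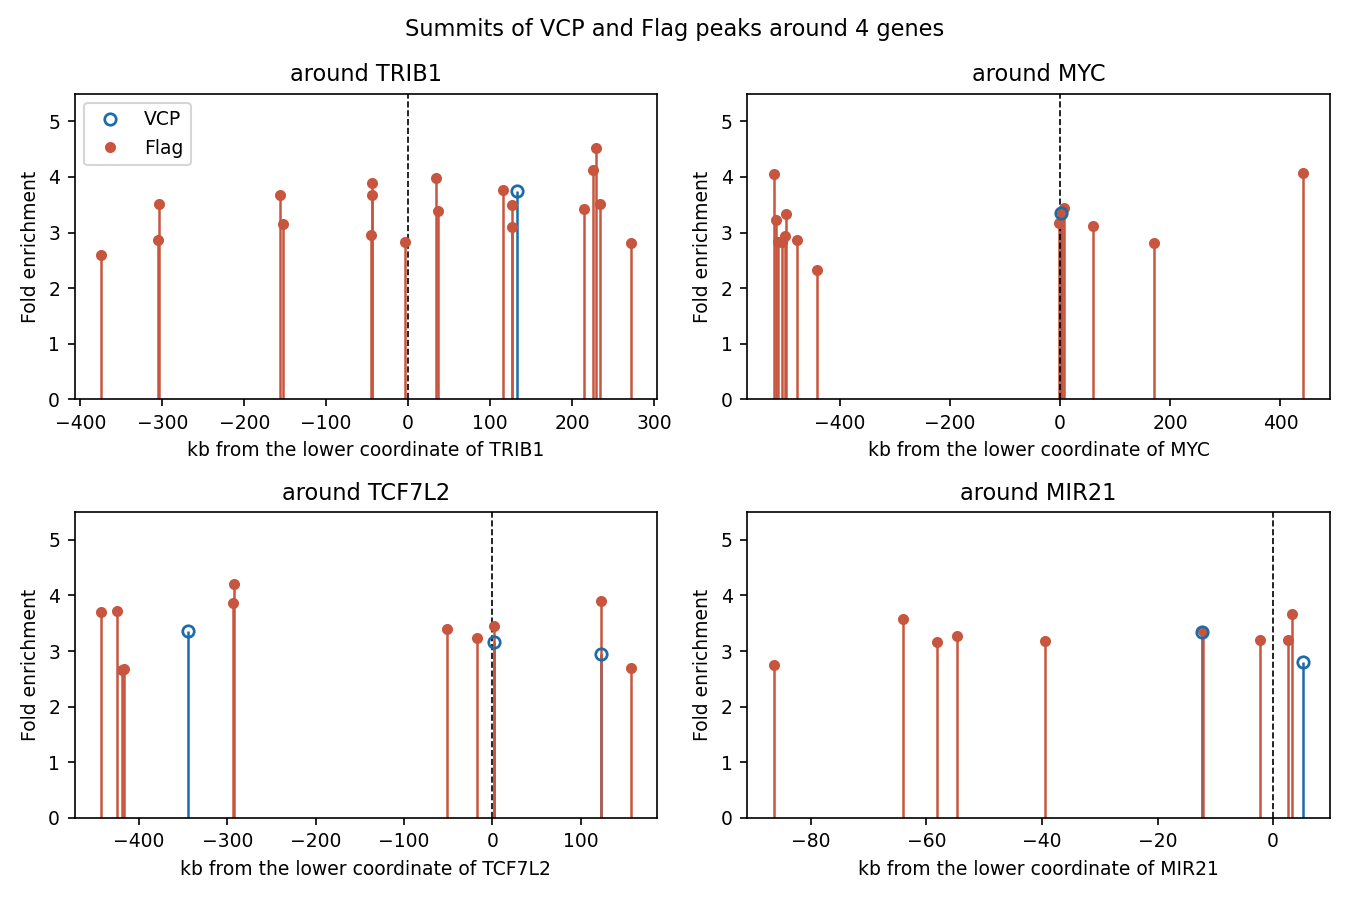
Fold enrichment (y axis) of member peaks by the distance of their summit from the lower coordinate of TRIB1, MYC, TCF7L2 and MIR21 in kb (x axis), VCP as open blue and Flag as filled red circles. The TRIB1 panel holds 1 VCP and 19 Flag summits, the MYC panel 1 and 14, the TCF7L2 panel 3 and 11 and the MIR21 panel 2 and 9.

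On 10q, VTI1A held 7 summits, the most of any protein-coding gene on that segment. It encodes a SNARE protein of vesicle fusion, and its neighbour TCF7L2 encodes the transcription factor that partners beta-catenin in Wnt signalling. The 6 Flag summits in VTI1A had fold enrichments of 2.66 to 4.21 and the 1 VCP summit 3.37. TCF7L2 held 2 VCP and 3 Flag summits, and both VCP peaks overlapped a Flag peak. At 112952095 the VCP summit had 13 reads and a fold enrichment of 3.16, and the Flag summit 4 bp away had 15 reads and 3.46. At 113073838 the VCP summit had 12 reads and 2.94, and the Flag summit at 113073899 had 16 reads, 3.90 and -log10 q of 2.48.

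On 17q the clusters at TEX14 and IGF2BP1 held the most peaks at q of 0.05 or below, 4 of 5 each. TEX14, a gene for a protein of germ-cell intercellular bridges, held Flag summits with fold enrichments of 2.87 to 4.95 and -log10 q up to 5.39, and no VCP summit. Its peak at 58659422 lay 117 bp from a small nuclear RNA gene, LOC124904122. IGF2BP1 encodes an RNA-binding protein, and its summit at 49036042 had 15 reads over 1.85 and a fold enrichment of 5.62. RNF43, a ubiquitin ligase gene that removes Wnt receptors, and the neighbouring HSF5 formed a run of 4 Flag summits. The 2 inside RNF43 had fold enrichments of 4.68 and 4.57 and -log10 q of 2.91 and 3.45. SAP30BP held 4 Flag and 1 VCP summits, and the VCP peak overlapped the strongest Flag peak, which had 16 reads and a fold enrichment of 5.47.

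The 3 VCP clusters held 3 peaks each and no Flag peak within 50 kb. One crossed ANGPT1 on 8q, the gene of an angiopoietin ligand, with fold enrichments of 2.28 to 3.59, and 1 of its 3 peaks had q of 0.05 or below. The others lay on 10q between 109791008 and 109832263 and between 111594391 and 111647121, away from any protein-coding gene, with no peak at that q.

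Most members were weak by the caller's own measure. In the VCP list 11 of 177 (6.22%, 3.14 to 10.9) had q of 0.05 or below, beside 6.49 percent of all VCP peaks on chromosomes and 5.04 percent of those away from gene ends. In the Flag list 147 of 418 did (35.2%, 30.6 to 39.96), beside 33.8 percent and 27.5 percent. The Flag share was 32.9% on 8q against 23.2% on the rest of chromosome 8, 32.0% on 10q against 18.0%, and 38.5% on 17q against 33.3%, and each pair of intervals overlapped. The median fold enrichment was lower on the segment in 5 of the 6 comparisons. It was nearly equal for VCP on 8q (3.126 against 3.128) and for Flag on 10q (3.237 against 3.234). It was 3.13, 3.02 and 3.13 in the VCP list on 8q, 10q and 17q, against 3.13, 3.28 and 3.47, and 3.15, 3.24 and 3.35 in the Flag list, against 3.30, 3.23 and 3.51. The median summit had 11 to 13 reads on the segments and 10 to 11 on the rest.

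The Flag member with the highest -log10 q lay in NR1D1 on 17q, the gene of the circadian repressor REV-ERB alpha. Its summit at 40099168 was 1421 bp from a gene end, with 32 reads (21.9 to 45.2) over 3.17, a fold enrichment of 7.90 and -log10 q of 15.5, and no VCP peak overlapped it. The next on 17q lay 2278 bp from EVPL, the envoplakin gene (fold enrichment 5.19), and 104 bp from the small nuclear RNA gene LOC124904147 at 43368191 (5.81). The fourth, 6457 bp from SMARCD2, a gene for a SWI/SNF remodeller subunit, had a fold enrichment of 5.14 and overlapped a VCP peak.

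On 8q, after the peak at 93846764, which lay 14111 bp from TMEM67, the Flag peaks next in -log10 q lay in the non-coding gene GASAL1 (fold enrichment 5.21), 69020 bp from YWHAZ, a 14-3-3 protein gene (5.78), in KLF10, a zinc finger transcription factor gene (4.35), and 4602 bp from the non-coding gene SLEAR (4.97). On 10q they lay 9117 bp from SFXN3 (5.49), in TACC2 (5.21), in GBF1, a gene for an exchange factor of Golgi ARF proteins (4.90), in NFKB2, an NF-kappa-B subunit gene (4.31), and 69130 bp from CTBP2, a co-repressor gene (4.39). The TACC2 and GBF1 summits lay 943 and 136 bp from a RefSeq start of the same gene, although over 1 kb from its outer ends.

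The VCP member with the highest -log10 q lay on 17q at 82494865, 73 bp from the tRNA gene TRX-CAT1-8, with 21 reads (13.0 to 32.1) over 3.72, a fold enrichment of 4.66 and -log10 q of 3.96. Next on 17q were peaks 27058 bp from SOCS3, a cytokine signalling inhibitor gene (4.14), in RARA, the retinoic acid receptor alpha gene (4.46), near SLC26A11 (3.77) and in SAP30BP (3.82). On 8q they were in SAMD12 (4.48, -log10 q 2.05), 280684 bp from RALYL (4.07), in the peptidase gene CPQ (3.73), in LINC01603 (3.73) and in ANGPT1 (3.59). On 10q they were in GRK5, a kinase gene for G-protein-coupled receptors (4.64, -log10 q 1.63), in DOCK1 (4.04), 10835 bp from ACSM6 (4.38), 611288 bp from MGMT (3.82) and in SORCS1 (3.13).

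Few members appeared in both lists. A peak of the other list overlapped 14 of 177 VCP members (7.91%, 4.39 to 12.9) and 14 of 418 Flag members (3.35%, 1.84 to 5.56). Over all peaks away from gene ends the shares were 4.83% and 1.88%. On 17q 7 of 44 VCP members were shared (15.9%, 6.64 to 30.1), on 8q 5 of 89 and on 10q 2 of 44. For VCP peaks of this kind on the rest of chromosome 17 it was 4 of 12 (33.3%, 9.93 to 65.1). On the rest of chromosomes 8 and 10 it was 0 of 44 and 0 of 51. The sources used here do not give the control of either list.

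The shared places were in HEY1, a transcriptional repressor gene of the Notch pathway, SAMD12, MYC, CYRIB, a regulator of RAC1, and ZNF517 on 8q, and at the 2 sites in TCF7L2 on 10q. On 17q they were in RARA, VMP1 and SAP30BP and beside TBX4, SMARCD2, BAHCC1 and METRNL. At CYRIB the VCP peak had 13 reads and a fold enrichment of 3.41, and the Flag peak 15 reads and 5.24. At HEY1 the VCP peak had 8 reads and 2.72, and the Flag peak 14 reads and 4.36. In 13 of these 14 pairs the VCP peak had q above 0.05, with SAMD12 the other.

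The 2 lists differed in where their members lay. VCP summits were a median of 70.9 kb from the nearest protein-coding gene end, with 4 protein-coding genes within 500 kb on either side. Flag summits were 22.9 kb away, with 8 genes. Over all peaks away from gene ends the distances were 110 and 36.6 kb, so the same order held there. On 17q, the segment richest in genes, the medians were 15.0 kb for VCP and 10.9 kb for Flag.

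Peaks inside protein-coding gene bodies were near the share of sequence those bodies cover. In the VCP list they were 38.2% on 8q (28.1 to 49.1), where bodies cover 39.0% of the length, 38.6% on 10q (24.4 to 54.5), where they cover 49.4%, and 22 of 44 on 17q (34.6 to 65.4%), where they cover 55.6%. For Flag they were 33.5% (26.3 to 41.4), 57.3% (45.4 to 68.7) and 57.7% (50.2 to 65.0). Every interval includes the share of length.

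RefSeq starts lay within 1 kb of 9 of 75 Flag members on 10q (12.0%) and 25 of 182 on 17q (13.7%), against 9.01% and 7.84% of Flag peaks of this kind on the rest of chromosomes 10 and 17. For VCP they lay near 1 of 44 members on 10q and 2 of 44 on 17q, against 6 of 51 and 1 of 12 on the rest. Starts on 8q were not analysed here. Counting non-coding genes, ends of long non-coding RNA genes lay nearest and within 1 kb for 11 of 177 VCP and 37 of 418 Flag members. Ends of tRNA genes did so for 1 and 2, and ends of small nuclear RNA genes for 0 and 2. The end of any gene lay within 1 kb of 10.6%, 12.0% and 14.8% of Flag members on 8q, 10q and 17q, against 7.25%, 9.01% and 13.7% on the rest. For VCP the shares were 6.74%, 6.82% and 11.4%, against 4.55%, 13.7% and 16.7%.

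The promoter windows with a member summit were 17, over 16 gene names, 16 of them from the Flag list. At LINC00673, a long non-coding RNA gene, the summit lay 8 bases past the start with 25 reads over 5.44, a fold enrichment of 4.04 and -log10 q of 4.65. At LOC124904048 it lay 236 bases before the start, with 18 reads and a fold enrichment of 4.11.

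On either strand, GGGCGG was found in 14 of the 17 windows, and in 45.0% of all 35116 RefSeq promoter windows of the same length. CCAAT was in 7 of 17 against 34.6%, TGANTCA in 2 of 17 against 7.71%, and TATAAA in 0 of 17 against 11.5%. The median window of all promoters had 58.7% G and C and 14 CpG, and the 17 with a summit had between 58.0% and 78.3% G and C. LINC00673 had 63.3% and 26 CpG, and LOC124904048 74.7% and 33 CpG. The comparison windows were not matched for G and C content, and the PRKAR1A windows share the summit at 68512258. The searched letters describe these windows and no factor was measured.

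Of the 1274 protein-coding genes on the segments, 61 held a VCP member (4.79 percent) and 145 a Flag member (11.4 percent), and 30 held both. Over all chromosomes 2.27 percent of protein-coding genes held a VCP peak of this kind and 6.34 percent a Flag peak. CSMD3, which is 1214 kb long, held 7 summits, 3 VCP and 4 Flag, at 5.77 per Mb of its length and with none at q of 0.05. MYC, 7.52 kb long, held 3. NSMCE2, a SUMO ligase gene of the SMC5/6 complex, held 4 Flag summits with fold enrichments of 2.86 to 3.67, VMP1 held 8 and CUTC, a gene of 23.9 kb, held 2.

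A list of 60 genes of cancer biology on the segments, chosen with earlier results known, had 5 genes with a VCP member and 15 with a Flag member, 16 with either. Its 57 protein-coding genes gave 8.77% and 21.1%, and their bodies are long, with a median of 70.6 kb over the list against 21.7 kb for all protein-coding genes of the segments. Besides those described, MSI2, a gene for an RNA-binding protein, held 4 Flag summits of 2.76 to 3.49, and PVT1 and TRPS1 held 2 Flag summits each. Of 5 genes for partners of VCP and for proteins of endoplasmic reticulum degradation (VCPIP1, DERL1, ERLIN1, NPLOC4 and ASPSCR1), 0 held a member of either list. Among all protein-coding genes of the segments 4.79% held a VCP and 11.4% a Flag member, so 5 genes are too few to show a difference.

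Members just inside the distance rule were Flag summits 1002 bp from IGBP1C, 1027 bp from MYC and 1030 bp from SLC16A3, with fold enrichments of 4.95, 3.17 and 3.24. Just outside it lay a VCP summit 992 bp from RPL30 (3.24) and Flag summits 954 bp from LOC124904075 (3.75) and 952 bp from KIF2B (3.04). At the borders, the nearest members were a VCP peak near SGK3 on 8q, the VCP peak near ACSM6 on 10q and the Flag peak in NR1D1 on 17q, and the nearest peaks outside lay near ARMC1, CYP2C18 and IKZF3, with fold enrichments of 2.99, 3.28 and 4.14.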

How the data were processed

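The submitters' processing notes name MACS2 2.1.0, Bowtie 1.1.2, Trimmomatic 0.33 and bcl2fastq 2.17, with hg38 as build; settings and the control of each list were not given in the sources used. Per the labels' protocols, 10 ng of DNA went into a library, with 8 cycles of PCR and fragments of 250 to 450 bp kept.

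The deposited lists give per peak a score, a fold enrichment, and −log10 p and −log10 q values. The deposited score was not used. The authors' fold enrichment is a linear ratio of summit reads to local background, taken here with a pseudocount of 1 read added to each. The authors' −log10 p and −log10 q values are unadjusted and adjusted values of the caller, with a lowest −log10 p of 3.00 in both lists, and columns of other series were 0. For each whole number of reads the fold enrichment gives a background. Reads were recovered as the number whose Poisson tail over that background best matched the deposited −log10 p.

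Lengths run between the first and last gene of a chromosome without gene-free stretches over 2 Mb. Of 59792 RefSeq gene rows, 58961 on chromosomes were kept and 19866 were protein-coding. Density ratios have exact Poisson intervals, shares exact binomial (Clopper-Pearson) intervals and medians order-statistic intervals. Intervals of background ratios hold the median of the rest fixed. PCR copies are not separate molecules and neighbouring peaks share signal. Peaks overlap from 1 bp. Steps were fitted by Poisson likelihood, with intervals of 1.92 likelihood units. No p-value was computed, since each group is 1 library.

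Named were, per segment, the top 5 members of each list by −log10 q, the 3 host genes with the most members, the cluster with the most members per list, hosts of shared members and members of the gene lists. Other clusters, windows and sequences, and the genes with them, were chosen after their values were seen. The members and lists were chosen with earlier results of these data known. Scripts ran in Python 3.11.15 and were tested on simulated data.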

Additional observations from a re-analysis of the deposited data

How the results depend on the processing

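Of 84 recomputed density ratios, 77 were above 1 and 69 had an interval above 1. The 7 at or below 1 were the 6 from peaks at the lowest background (VCP 0.796 on 8q, 0.787 on 10q and 0.138 on 17q; Flag 0.279, 0.281 and 0.645) and VCP on 17q with q of 0.05 or below (0.825, from 3 peaks on the segment and 3 on the rest). Peaks at and above the lowest background, and windows without the fullest 2, were chosen after seeing the data. With q of 0.05 or below the ratio was 2.39 for VCP and 2.64 for Flag on 8q and 2.83 for Flag on 10q. It was 1.38 for VCP on 17q with fold enrichments of at least 3.5, 2.39 for VCP on 8q against the other autosomes, and 2.83 for Flag on 8q against the same arm. Above the lowest background it was 2.50, 2.40 and 4.83 for Flag.

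The background ratio with means was 0.521 for VCP and 0.892 for Flag on 17q. With q of 0.05 or below it was 1.08 for VCP on 10q and 1.17 for Flag on 17q, and against the other autosomes 1.021 and 1.23 for VCP and Flag on 17q. The share with q of 0.01 or below was 1.12% on 8q and 0% on 10q for VCP, and 18.6%, 13.3% and 23.1% for Flag. With gene ends included, the step moved to 123 Mb for Flag on chromosome 8 and to 73 Mb for VCP on chromosome 17. Clusters with gaps of 25 kb held 0% of VCP peaks on 8q and 0% on 10q, and 19.3% and 5.33% of Flag peaks there. With 100 kb they held 39.1% of Flag peaks on 8q and 47.8% on 17q. Counting bodies of all genes gave 51.7% and 54.6% for VCP on 8q and 10q, and 54.0% and 67.0% for Flag on 8q and 17q. The cause was not tested, except that smaller gaps and stricter q count fewer peaks by construction.

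No paired analysis was possible because each group is 1 library, and leaving out a replicate was not possible for the same reason. With 12 VCP peaks on the rest of chromosome 17, its ratios have wide intervals.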

Other observations

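The same segments also held more peaks at gene ends, which the report leaves out. Within 1 kb of a protein-coding gene end, the VCP list had 3.31 peaks per 100 protein-coding genes on 8q and 0.581 on the rest of chromosome 8, a ratio of 5.69 (95% interval 1.27 to 52.3, from 12 and 2 peaks). On 10q it had 3.58 against 1.101, a ratio of 3.25 (1.01 to 12.1), and on 17q 4.11 against 1.90, a ratio of 2.16 (1.01 to 5.02). The Flag list had 16.0 per 100 genes on 8q against 8.14, a ratio of 1.96 (1.23 to 3.20), 15.1 on 10q against 9.03, a ratio of 1.67 (1.06 to 2.63), and 14.9 on 17q against 7.62, a ratio of 1.95 (1.34 to 2.90). The median background of these peaks was higher on the segments in all 6 cases, with 3.61 against 1.89 reads in the Flag list on 8q.

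Among the autosomes, chromosome 16 had rank 3 in both lists by peaks per Mb away from gene ends, with 0.752 for VCP and 1.68 for Flag. Chromosomes 8 and 21 ranked higher in the VCP list and chromosomes 19 and 17 in the Flag list.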
